A study of Mus musculus with 6 samples.

Results

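Genes for S100 proteins, annexins and galectins were examined on arrays of mouse uterus with and without Indian hedgehog (Ihh). The 10 genes are S100a4, S100a6, S100a10, S100a11, Anxa1, Anxa2, Anxa5, Anxa6, Lgals1 and Lgals3. Every probe set that the platform annotation gives exactly 1 symbol, that of one of these genes, was taken, which gave 18 of 45037 probe sets and 9 of the 10 genes. S100a11 had no such probe set and was not analysed here. The 9 genes are among 18193 that the array names in this way. The 10 genes were chosen on the differences between Ihh-ablated and control arrays that were already known, so their own differences are a description and carry no test.

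Control uteri were from Ihhf/f mice, which carry floxed Ihh alleles (3 samples). Ihh-ablated uteri, labelled Ihhd/d, were from PRcre/+Ihhf/f mice, in which a Cre recombinase expressed from 1 allele of the progesterone receptor locus removes Ihh (3 samples). Both groups share the floxed alleles. All samples date from day -1 of an artificially induced decidual response. The negative number places them before the day from which the response is counted. In the full response, hormones and a uterine stimulus make the stroma differentiate as in pregnancy. The Cre acts where the progesterone receptor is expressed, in several uterine cell types. Effects of Cre itself, of the receptor allele that carries it and of Ihh loss cannot be told apart. Ages are not stated in the labels. Nor do the labels tie samples to individual mice, and p-values here therefore reflect only sample-to-sample spread, possibly of technical origin. Titles, genotypes and design text give the Ihh genotypes, whereas the labels' source names mention a Smoothened model.

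S100 proteins are small calcium-binding proteins that act as dimers, and most change shape on binding calcium and then grip a target protein. Annexins bind acidic membrane phospholipids when calcium rises and take part in membrane repair, trafficking and the anchoring of actin. The families meet in 1 complex: a dimer of S100a10, an S100 protein that no longer responds to calcium, joins a pair of Anxa2 molecules at the inner face of the plasma membrane, and at the cell surface this complex binds tissue plasminogen activator and plasminogen. Galectins are secreted lectins that bind beta-galactosides on glycoproteins and link cells to each other and to the matrix. In the uterus, members of all 3 families are expressed in epithelium, stroma, vessels and leukocytes.

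Median intensities of the 6 arrays ranged from 121.4 to 142.5 (control replicate 2), and correlations between arrays (Pearson, log2, across probe sets, which are not independent replicates) were 0.951 to 0.990. Other tissues were present on some arrays. The summed intensity of 12 striated muscle markers was 9909 in control replicate 3 against 1475 to 2327 elsewhere, and that of 9 exocrine pancreas markers was 82148 in Ihh-ablated replicate 2 against 984.5 to 3019. Adipocyte markers (11 genes) summed to 3482 to 14362 in control samples and 11489 to 26196 in Ihh-ablated uteri. Markers of endometrial stroma, smooth muscle and epithelium were well represented in all 6 arrays. Because of the muscle and pancreas signal, the log2 differences of the 9 genes are also given without control replicate 3 and Ihh-ablated replicate 2. Leaving these arrays out does not even out the adipocyte signal. The arrays that remain summed to 3482 and 8576 in control samples and 11489 and 26196 in Ihh-ablated uteri, with no overlap. With 3 arrays per group, precision is limited by their number.

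Of the 9 genes, each represented by its brightest probe set, 4 were lower in Ihh-ablated uteri at an adjusted p under 0.05 (limma, adjusted over all tested probe sets), 0 were higher and 5 did not pass. The 4 were S100a6, S100a10, Anxa2 and Lgals1, lower by 1.26-fold to 1.60-fold. Over the whole array 1.53% of 15530 tested genes were lower by the same rule, and nothing is read from the gap because the genes were chosen with this contrast in view. Of the 18 probe sets, 16 were bright enough to be tested, 7 were lower, 0 higher and 9 did not pass, where 1.11% of all tested probe sets were lower and 1.03% higher. Every Ihh-ablated array read lower than every control array in 5 of the 9 genes and in 9 of the 16 tested probe sets. Over the whole array that held for 19% of tested genes and 17.9% of tested probe sets. The median log2 difference of the 9 genes was -0.33, against -0.04 over all tested genes. Fewer cells of a type and less RNA per cell cannot be told apart in whole uterus.

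**Figure D1:**
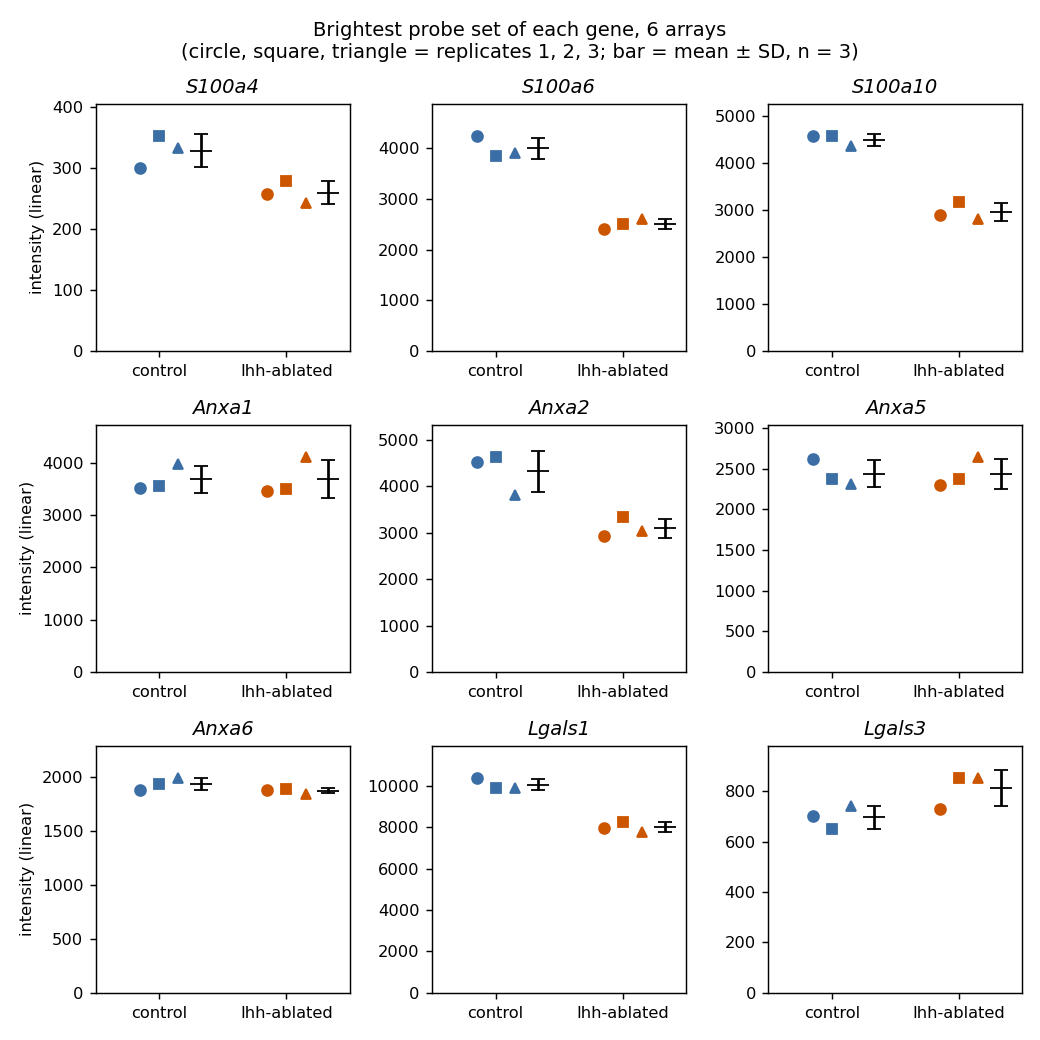
Linear intensity (vertical axes, each from 0) of the brightest probe set of 9 genes on each of the 6 arrays, control in blue and Ihh-ablated in orange, with circle, square and triangle for replicates 1, 2 and 3 and a bar for the mean ± SD of the 3 arrays of a group. S100a4, S100a6, S100a10, Anxa2 and Lgals1 show every Ihh-ablated array below every control array, while the groups overlap for Anxa1, Anxa5, Anxa6 and Lgals3.

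S100a6 (calcyclin), a calcium sensor of fibroblasts and other dividing cells, had the largest difference among the brightest probe sets. Its control arrays read 4243, 3852 and 3901 and its Ihh-ablated arrays 2403, 2499 and 2597. The groups were far apart, with a gap between them wider than the range within either group. Means were 3999 ± 213 and 2499 ± 97.3 (intensity ± SD, n = 3 each), 1.60-fold lower (log2 -0.68, SE 0.06). Without control replicate 3 and Ihh-ablated replicate 2 the log2 difference was -0.69.

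S100a10 (p11), the S100 subunit of the complex with Anxa2, was measured by 3 probe sets. The brightest read 4572, 4566 and 4348 in control samples and 2886, 3169 and 2816.5 in Ihh-ablated uteri, 1.52-fold lower (log2 -0.61, SE 0.06). The second read 3536, 2913 and 2485 against 1719, 1849.7 and 1893 (log2 -0.70, SE 0.11). The dimmest read 200.1, 162.1 and 180.1 against 123.9, 119.0 and 116.6 (log2 -0.59, SE 0.12). All 3 probe sets had groups that did not overlap and differences of like size, but they read the same RNA and are not replicates of each other. The control arrays of the second probe set were spread more widely, from 2485 in replicate 3 to 3536 in replicate 1, than those of the brightest. Without control replicate 3 and Ihh-ablated replicate 2 the difference of the brightest was -0.68.

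S100a4 (metastasin), a binder of non-muscle myosin found in fibroblasts and leukocytes, had a single, dimmer probe set. It read 299.9, 352.8 and 333.6 in control samples and 257.9, 279.2 and 242.0 in Ihh-ablated uteri. The groups did not overlap, but control replicate 1 stood only slightly above Ihh-ablated replicate 2. The log2 difference was -0.34 (SE 0.11), or -0.38 without control replicate 3 and Ihh-ablated replicate 2, and the gene was not among those that passed.

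The 4 listed S100 genes share a chromosome in assembly GRCm38.p6, where most S100a genes form a cluster. In the order of protein-coding genes, S100a5 is the only gene between S100a4 and S100a6, and S100a10 adjoins S100a11, with 54 protein-coding genes between this pair and the nearest other S100a gene. The neighbours were measured by the same fit. S100a5, a probe set near the filter for dim signals, differed by -0.11 (adjusted p = 0.669). S100a16 differed by -0.088 (adjusted p = 0.465), S100a13 by -0.061 (0.718), S100a14 by -0.073 (0.747) and S100a1 by 0.14 (0.381). S100a3 was too dim to be tested. Of the S100a genes tested on this chromosome S100a6 and S100a10 thus passed and the others did not, and whether the genes differ from their neighbours in size of response was not tested.

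Anxa2, which pairs with S100a10 and also binds actin and the membrane lipid PIP2, was lower in Ihh-ablated uteri. Its brightest probe set read 4518, 4628 and 3813 in control samples and 2932, 3324 and 3029.8 in Ihh-ablated uteri. Control replicate 3 was the lowest control array and still lay above all Ihh-ablated arrays. Means were 4319.6 ± 443 and 3095 ± 204, 1.39-fold lower (log2 -0.48, SE 0.08). Without control replicate 3 and Ihh-ablated replicate 2 the difference was larger, at -0.62. Anxa2 no longer passed when control replicate 1 was left out (log2 -0.44), nor without control replicate 2 (-0.43), Ihh-ablated replicate 1 (-0.44) or Ihh-ablated replicate 3 (-0.46), whereas S100a6, S100a10 and Lgals1 passed without any 1 array. The other Anxa2 probe sets were too dim to be tested: one read 65.6, 99.6 and 67.5 against 49.5, 46.0 and 43.4, with no overlap, and the other 45.9, 33.7 and 30.6 against 30.6, 35.5 and 33.9, with overlap.

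Anxa1 (lipocortin), a glucocorticoid-induced annexin whose N-terminal part acts on formyl peptide receptors, had nearly equal group means. Its bright probe set read 3516, 3555 and 3980.0 in control samples and 3460.4, 3504 and 4110.0 in Ihh-ablated uteri. Replicate 3 was the highest in each group, and the ranges overlapped almost completely (3684 ± 257 and 3691 ± 363, log2 difference 0.00088, SE 0.08). A much dimmer Anxa1 probe set, near the filter for dim signals, read 85.1, 110.3 and 92.3 against 67.4, 58.2 and 69.1. Its groups did not overlap (log2 -0.56, SE 0.14), and it did not pass. The probe sets of Anxa1 thus disagree, and with the mean of both in place of the brighter one the difference was -0.28, which did not pass either.

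Anxa5, which shields phosphatidylserine on cell surfaces and is widely used to stain dying cells, was measured by 1 probe set. It read 2627, 2378 and 2310.5 in control samples and 2299.7, 2373 and 2648 in Ihh-ablated uteri, so the groups overlapped fully (log2 difference 0.00062, SE 0.07). Anxa6, a double-length annexin of muscle and other cells, had 4 probe sets. Its brightest read 1878, 1929 and 1989.6 against 1874, 1889 and 1843 (log2 -0.048, SE 0.06). The other Anxa6 probe sets differed by 0.11, -0.23 and 0.0093 (SE 0.08, 0.14 and 0.13), with overlapping groups in each. With arrays centred on their medians the sign of the brightest Anxa6 probe set turned (log2 0.043). With control replicate 3 and Ihh-ablated replicate 2 left out the difference was 0.093 for the bright Anxa1 probe set, -0.018 for Anxa5 and -0.034 for Anxa6. For Anxa1, Anxa5 and Anxa6 a miss of the threshold does not show that the groups were equal.

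**Figure D2:**
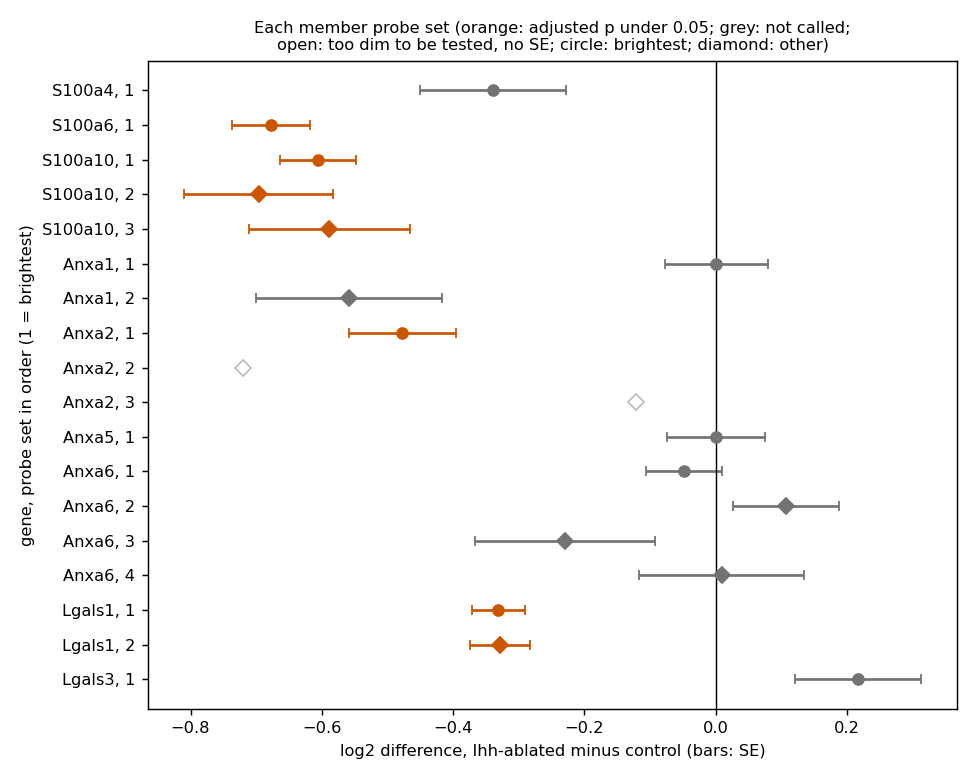
Log2 difference of Ihh-ablated minus control (horizontal axis, bars are the SE) for each of the 18 probe sets, listed by gene and in order of brightness; orange marks those past the adjusted p of 0.05, grey those not past it, and open symbols the 2 Anxa2 probe sets too dim to be tested. The 3 S100a10 and 2 Lgals1 probe sets lie together, whereas those of Anxa1 lie apart, at 0.00088 and -0.56.

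The stretches before the start sites of an S100 gene and an annexin that were lower, and of a member of each family that did not pass, are shown so that the letters can be compared. The promoter table of RefSeq, build GRCm38.p6, held 7 of the 10 genes (S100a10, Lgals1 and Anxa6 were not among them). Each stretch is the 250 bases before the annotated start of the gene, in the direction of the gene, and lies outside the gene. Capitals mark every match, on either strand, to 5 motifs. These are the AP-1 site, spelled TGANTCA, where Fos and Jun proteins bind, and the Gli site of the Hedgehog pathway, spelled GACCACCCA. The E-box, bound by proteins of the helix-loop-helix class, is spelled CACGTG. The TATA box, which helps to position the transcription start, was searched as TATAAA. The GC box, where Sp proteins bind, was searched as GGGCGG. No 2 matches overlap in these stretches.
S100a6, chr3:90612644-90612893, plus strand: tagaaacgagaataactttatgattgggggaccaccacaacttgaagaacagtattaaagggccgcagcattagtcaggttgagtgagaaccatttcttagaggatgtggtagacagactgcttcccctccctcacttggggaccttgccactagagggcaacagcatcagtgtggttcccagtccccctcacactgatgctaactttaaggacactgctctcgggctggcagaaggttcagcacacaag
S100a4, chr3:90603520-90603769, plus strand: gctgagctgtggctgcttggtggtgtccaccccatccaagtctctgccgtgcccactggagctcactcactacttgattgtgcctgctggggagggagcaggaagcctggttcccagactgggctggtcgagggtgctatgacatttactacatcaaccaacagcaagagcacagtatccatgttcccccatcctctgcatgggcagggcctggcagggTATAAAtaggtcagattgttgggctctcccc
Anxa2, chr9:69453433-69453682, plus strand: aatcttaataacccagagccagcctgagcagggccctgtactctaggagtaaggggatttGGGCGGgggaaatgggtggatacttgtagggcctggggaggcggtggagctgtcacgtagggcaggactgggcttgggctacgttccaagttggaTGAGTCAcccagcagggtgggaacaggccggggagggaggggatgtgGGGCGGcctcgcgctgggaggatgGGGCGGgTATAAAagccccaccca
Anxa1, chr19:20390672-20390921, minus strand: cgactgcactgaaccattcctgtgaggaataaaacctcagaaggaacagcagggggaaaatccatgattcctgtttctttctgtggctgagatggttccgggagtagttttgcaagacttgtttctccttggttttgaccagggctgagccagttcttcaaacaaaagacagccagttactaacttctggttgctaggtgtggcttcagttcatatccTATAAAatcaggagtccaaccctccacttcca
Anxa2 holds an AP-1 match (89 to 95 bases before the start), a TATA box (12 to 17 bases before the start) and 3 GC boxes. S100a4 and Anxa1 hold a TATA box each, 26 to 31 and 27 to 32 bases before their starts, and S100a6 holds none of the 5 motifs. AP-1 matches occur in 6.75% of the 32851 windows of this length in the table, TATA boxes in 12.4% and GC boxes in 32.7%. The Gli letters, present in 0.225% of all windows, were in 0 of the 7 gene windows. Such matches describe the letters and do not show binding.

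Lgals1 (galectin-1), the abundant stromal galectin that cross-links cell-surface glycans and dampens T cell responses in pregnancy, was lower in Ihh-ablated uteri by both of its probe sets. The brighter one read 10387.5, 9918 and 9876 in control samples and 7967, 8259 and 7767 in Ihh-ablated uteri. The groups were well separated and the spread within each was small (10060.5 ± 284 and 7998 ± 248, 1.26-fold lower, log2 -0.33, SE 0.04). The other probe set read 8769, 8597 and 8187 against 6806, 7034 and 6511 (log2 -0.33, SE 0.05). Without control replicate 3 and Ihh-ablated replicate 2 the difference was -0.37. Lgals1 and Anxa2 passed neither with median-centred arrays nor without an intensity trend in the variance model, where S100a6 and S100a10 still did.

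Lgals3 (galectin-3), the galectin with a collagen-like tail that marks macrophages and luminal epithelium, had the most positive difference of the 9 genes, and it did not pass. It read 699.8, 650.3 and 741.9 in control samples and 728.2, 852.8 and 853.2 in Ihh-ablated uteri. Ihh-ablated replicate 1 lay below control replicate 3, so the groups overlapped (log2 0.22, SE 0.10, and also 0.22 without control replicate 3 and Ihh-ablated replicate 2). Macrophage markers (13 genes) summed to 6555 to 7454 in control samples and 6632 to 8333 in Ihh-ablated uteri, and epithelial markers (13 genes) to 13006 to 19118 and 18434 to 20150.2. Of the 13 epithelial markers 0 passed on all 6 arrays, and 7 had an unadjusted p under 0.05 (limma), against 3762 of 15530 tested genes. But 8 rose without control replicate 3 and 7 without that array and Ihh-ablated replicate 2. Over the whole array 717 and 482 genes rose in these settings, against 199 on all 6 arrays. The part of the epithelial markers in the Lgals3 values was not tested.

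The remaining genes of the 3 families on the array, 26 by symbol, were measured by the same fit. Of the 22 bright enough to be tested, 0 rose and 0 fell (limma, adjusted p under 0.05), against 1.53% lower and 1.28% higher over all genes. An unadjusted p under 0.05 was reached by 3 of the 22, against 3762 of 15530 tested genes over the whole array. The median log2 difference of the 22 was -0.00022. Of these, 10 have S100 symbols, among them S100pbp, which encodes a binding protein. S100g (calbindin-D9k), an oestrogen-regulated calcium buffer of the uterine epithelium, read 4063 ± 555 in control samples and 4116 ± 164 in Ihh-ablated uteri (log2 0.027, adjusted p = 0.864). The neutrophil alarmins S100a8 and S100a9 were dim and differed by -0.10 (adjusted p = 0.693) and -0.22 (0.434). Among 5 other annexins tested, Anxa3 differed by -0.0095 (adjusted p = 0.967) and Anxa4, an epithelial annexin, by -0.10 (0.545).

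Lgals2 had the lowest adjusted p of these genes. It read 392.1, 451.4 and 331.0 in control samples and 280.8, 282.2 and 262.1 in Ihh-ablated uteri (log2 -0.50, SE 0.13, adjusted p = 0.0815), with no overlap between groups. It passed without control replicate 3 (log2 -0.61, adjusted p = 0.0149), where Anxa8 also passed (-0.51, 0.0479), and Lgals2 passed without control replicate 3 and Ihh-ablated replicate 2 together (-0.63, 0.036). Lgals8 was higher on all 3 Ihh-ablated arrays (607.6, 694.5 and 655.7 against 568.7, 513.5 and 559.5), with a log2 difference of 0.25 that did not pass (adjusted p = 0.157). The list of 26 follows the symbols and thereby includes S100pbp and Lgals3bp, which encode binding proteins of these families. Lgals3bp read 660.6 ± 15.5 and 818.1 ± 155 (log2 0.29, adjusted p = 0.205), with Ihh-ablated replicate 3 far above the other arrays at 995.8.

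**Figure D3:**
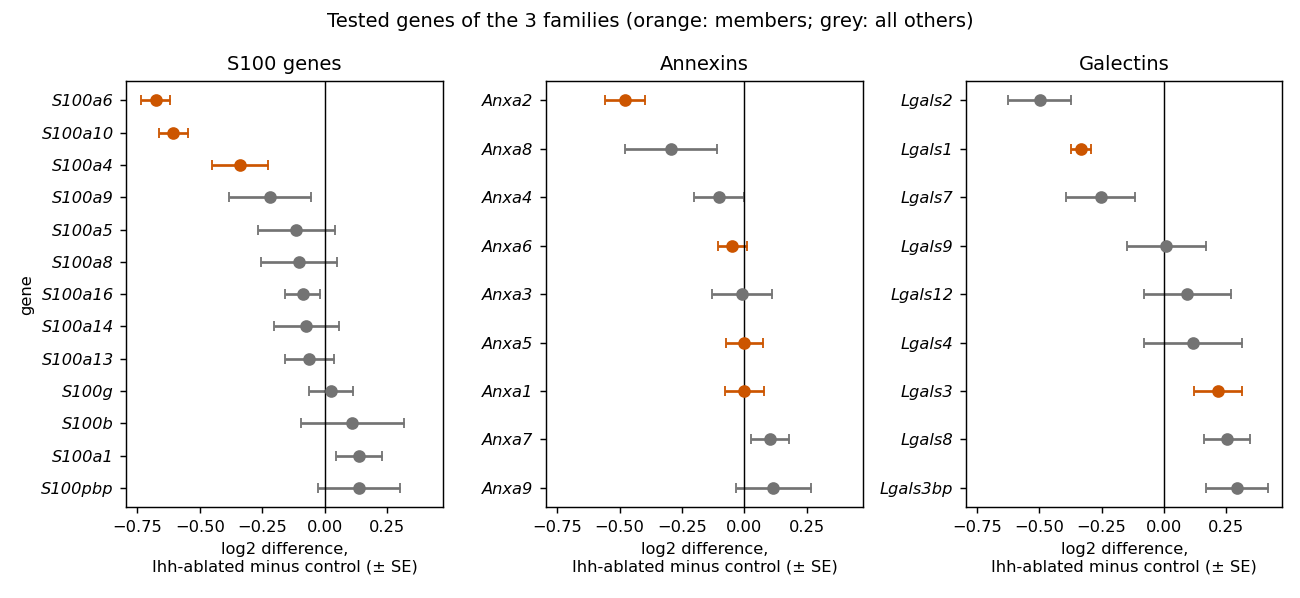
Log2 difference of Ihh-ablated minus control with its SE (horizontal axes) for the tested genes of each family, orange for the 9 genes chosen and grey for the 22 others, each by its brightest probe set. S100a6 and S100a10 lie farthest to the left among S100 genes and Anxa2 among annexins, while Lgals2, which did not pass (adjusted p = 0.0815), lies left of Lgals1 with a wider SE.

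Proteins that bind these families were taken from a list of 22 genes, 20 of them tested. In this list 1 gene rose, 1 fell and 18 missed the threshold (median log2 difference 0.015). Cd44, a hyaluronan receptor that carries galectin-binding glycans, read 1292, 1189.5 and 1159.5 in control samples and 731.9, 740.8 and 731.3 in Ihh-ablated uteri. It fell on all 3 arrays with very little spread in the Ihh-ablated group (log2 -0.72, SE 0.08, adjusted p = 0.00285). A second Cd44 probe set also fell (log2 -0.75, adjusted p = 0.00623 in the same fit). Another did not pass (log2 -0.17, adjusted p = 0.460), and the remaining one was too dim to be tested. Plat, the tissue plasminogen activator that the Anxa2 and S100a10 complex binds, read 1029.5, 1057 and 1158 in control samples and 1788, 1596 and 1508 in Ihh-ablated uteri.

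Plat rose by 0.59 (SE 0.09, adjusted p = 0.0117), the opposite direction to Anxa2 and S100a10, and a link between them was not tested. The differences of Plat and Cd44 were 0.65 and -0.76 without control replicate 3 and Ihh-ablated replicate 2. The Plat call was lost without control replicate 1 (adjusted p = 0.0644), control replicate 2 (0.0519) or Ihh-ablated replicate 1 (0.0593) and with the mean of its probe sets (log2 0.30, 0.113), and over all 18 alternatives the adjusted p ran from 0.00549 to 0.113. Ahnak, a giant scaffold protein that binds the same complex, read 4037 ± 120 and 4051 ± 245 (log2 0.0037, adjusted p = 0.973). Cacybp, the partner of S100a6 in ubiquitin ligation, differed by -0.27 (adjusted p = 0.154). Myh9, the non-muscle myosin that S100a4 binds, differed by -0.060 (adjusted p = 0.683), the formyl peptide receptor Fpr2 by 0.015 (0.954), and the S100 receptors Ager and Tlr4 by -0.12 (0.643) and 0.26 (0.228). Without control replicate 3, Cacybp (-0.35, adjusted p = 0.0418) and the calcium channel Trpv6 (-0.62, 0.0315) also fell and the kinase Prkca rose (0.40, 0.047).

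Other genes of the cytoskeleton and of calcium binding were counted for comparison. Of 23 actin and intermediate filament genes 4 fell and 0 rose, against 1.53% lower over all genes, and the median log2 difference was -0.092. The 4 were Vim (vimentin, -0.37, adjusted p = 0.0139), the actin-binding proteins Cotl1 (-0.49, 0.0196) and Tagln2 (-0.59, 0.044) and the actin-severing protein Cfl1 (cofilin, -0.22, 0.0384). This count was 0 with median-centred arrays, without an intensity trend and without control replicate 1 or Ihh-ablated replicate 1, and 1 without control replicate 2, Ihh-ablated replicate 2 or Ihh-ablated replicate 3. It was 2 with dim probe sets kept and with the mean of a gene's probe sets. Among 18 tested genes for other calcium-binding proteins 1 fell, Calu (calumenin of the secretory pathway, -0.30, adjusted p = 0.0439), 0 rose and 17 did not pass. The Calu call was lost with median-centred arrays, without an intensity trend, with dim probe sets kept, with the mean of a gene's probe sets and without any 1 array other than control replicate 3. In this list 1 gene rose in 7 of the 18 alternatives. Sparc, a calcium-binding matrix protein, differed by -0.0026 (adjusted p = 0.969) and the calcium buffer Calb1 by 0.017 (0.955).

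How the genes varied among samples of one genotype was described from each array's deviation from its group mean, which removes the genotype difference used to choose them. Over the 6 arrays these deviations had Pearson correlations from -0.83 to 0.93 among the 36 pairs. S100a10 went with its partner Anxa2 (r = 0.78) and with Lgals1 (r = 0.82), and Anxa2 with Lgals1 (r = 0.57). The arrays with muscle or pancreas signal weigh on these values. In control replicate 3 S100a10, Anxa2 and Lgals1 deviated by -0.048, -0.17 and -0.026, and in Ihh-ablated replicate 2 by 0.10, 0.10 and 0.047. The correlations without these arrays are not given. S100a6, which was lower by a like amount, did not follow S100a10 (r = 0.035) and went with Anxa5 (r = 0.93) instead. S100a4 and S100a6 ran opposite to each other (r = -0.76), as did S100a10 and Anxa1 (r = -0.69). The points share arrays, labelling and the authors' normalization, only 3 arrays per group enter, and the values are a description without a test.

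**Figure D4:**
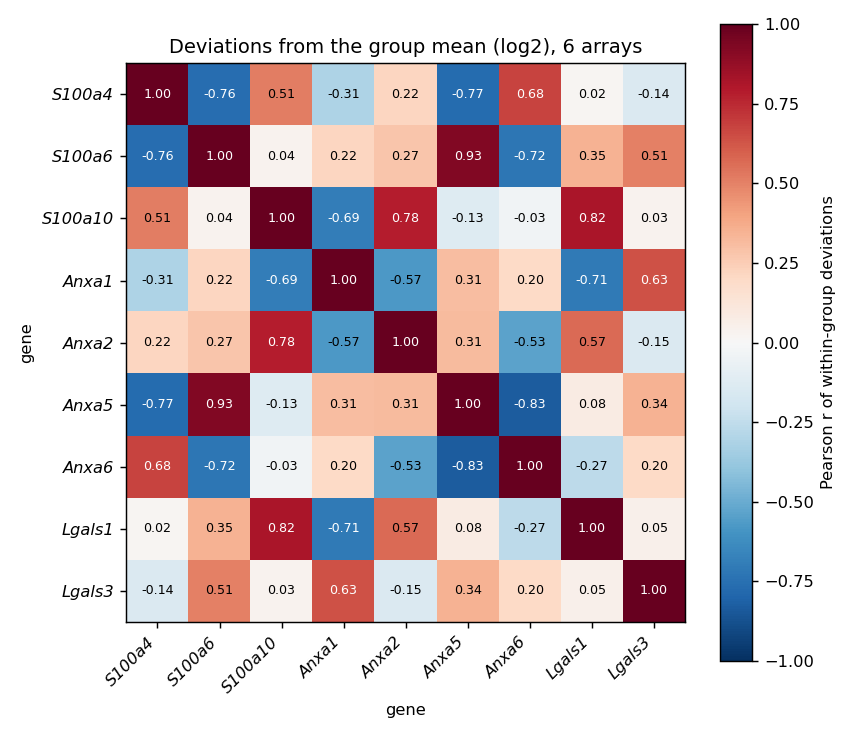
Pearson correlation (colour and printed value) between 9 genes of the deviations of 6 arrays from their group means in log2 intensity. The pairs S100a10 with Lgals1 (0.82) and S100a10 with Anxa2 (0.78) are positive, and S100a6 with S100a10 is near 0 (0.035).

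Among 6973 other tested genes with a log2 range of at least 0.5 over the arrays, those whose profile over the 6 arrays was most like the mean of the 9 genes were Mcm7 (r = 0.998), Dnah1 (0.996), Oaf (0.993), Bok (0.993) and Mcm5 (0.991). Mcm5 and Mcm7 encode subunits of the replicative helicase, Dnah1 a dynein chain and Bok a relative of the BCL2 proteins. Mcm7 read 1416 ± 23.3 in control samples and 827.2 ± 78.2 in Ihh-ablated uteri (log2 -0.78), and Mcm5 778 ± 87.3 and 261 ± 27.5 (log2 -1.58). These correlations follow mostly from the step between genotypes and carry no test.

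Markers of cell types were summed on the same arrays. Mitotic genes (14) summed to 6399 to 7774.5 in control samples and 2689 to 3134 in Ihh-ablated uteri. S100a6, S100a10, Anxa2 and Lgals1 were lower on the same arrays, as any genes lower with Ihh ablation must be. A link between them was not tested. Of these 14 genes 13 fell (8 without control replicate 1), with Top2a (-1.27, adjusted p = 0.000997), Mki67 (-1.84, 0.00139), Ccna2 (-1.67, 0.00139) and Cdk1 (-1.71, 0.00152) at the lowest p. Endometrial stroma markers (12) summed to 47896 to 51706 and 47484 to 49786 and smooth muscle markers (13) to 74511 to 79600.2 and 74946 to 75181, with overlap in both lists. In stroma 1 of 12 tested markers fell, Thy1 (-1.44, adjusted p = 0.00139), and 1 rose, Dcn (0.24, 0.0488). In smooth muscle 2 of 13 fell, Hspb6 (-0.78, adjusted p = 0.0101) and Actg2 (-0.25, 0.0337), and in endothelium 1 of 12, Cdh5 (-0.57, 0.0275). Over all tested genes 1.53% were lower and 1.28% higher. Median log2 differences were -0.088 in stroma, -0.038 in smooth muscle and 0.042 in endothelium. Markers that did not pass went both ways, such as Vwf of endothelium (0.63, adjusted p = 0.073) and Kcnmb1 (0.38, 0.117) and Tpm2 (-0.14, 0.0752) of smooth muscle. No stroma marker rose in 11 of the 18 alternatives, among them quantile normalization, median-centred arrays and leaving out any 1 array other than control replicate 3. No endothelial marker fell in 7, among them median-centred arrays and leaving out control replicate 1 or 2 or Ihh-ablated replicate 1 or 2. In smooth muscle 0 fell without Ihh-ablated replicate 1, and 1 fell without any other 1 array except control replicate 3. Neutrophil markers (8) summed to 1019, 1023 and 1450.2 in control samples, of which the last is control replicate 2, and to 931.7 to 1011 in Ihh-ablated uteri, so that 2 control arrays lay close to the Ihh-ablated ones. Their median log2 difference was -0.25, or -0.089 without control replicate 2. Lymphoid markers (12) summed to 1189 to 1452, again highest in control replicate 2, and to 1088.5 to 1139. Pan-leukocyte markers (6) overlapped (1474 to 1857 in control, 1851 to 2007 in Ihh-ablated uteri), as did endothelial markers (12; 6926 to 7581 and 6657 to 7691), and mesothelial markers (5) were 1151 to 1353 and 1349.6 to 1428. In the other 9 marker lists 0 genes passed on all 6 arrays (limma). An unadjusted p under 0.05 was reached by 0 to 8 genes a list, against 3762 of 15530 tested genes over the whole array. Calls appeared in 5 of these lists under other settings. Besides the epithelial markers given above, of which 4 rose with the replicate number as a block, 2 with array weights and 1 with robust variance estimates, 7 of 10 adipocyte markers rose with the block, 4 without control replicate 3 and 3 without that array and Ihh-ablated replicate 2. Without both arrays 3 of 9 pancreas markers and 1 of 11 striated muscle markers fell and 1 of 12 macrophage markers rose. Over the whole array 456 genes rose with the block, 717 without control replicate 3 and 482 without both arrays, against 199 on all 6 arrays. Without both arrays 662 fell, against 238. On all 6 arrays the genes of lowest p in the 9 lists were C1qc of macrophages (0.43, adjusted p = 0.115), Elane of neutrophils (-0.40, 0.256), Cd8a of lymphoid cells (-0.47, 0.142) and the pan-leukocyte gene Laptm5 (0.33, 0.238). For the remaining lists they were Adipoq of adipocytes (1.61, adjusted p = 0.164), Tnni2 of striated muscle (-1.20, 0.0893), Cel of pancreas (1.32, 0.452), Krt7 of epithelium (0.56, 0.0572) and Upk3b of mesothelium (0.29, 0.353). None of these markers lay under the floor of 16 on all 6 arrays, which does not show that each was detected. Of the 12 lymphoid markers 8 were bright enough to be tested, and of the 8 neutrophil markers 7. The part of any of these cell types in the differences of the 9 genes was not tested.

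**Figure D5:**
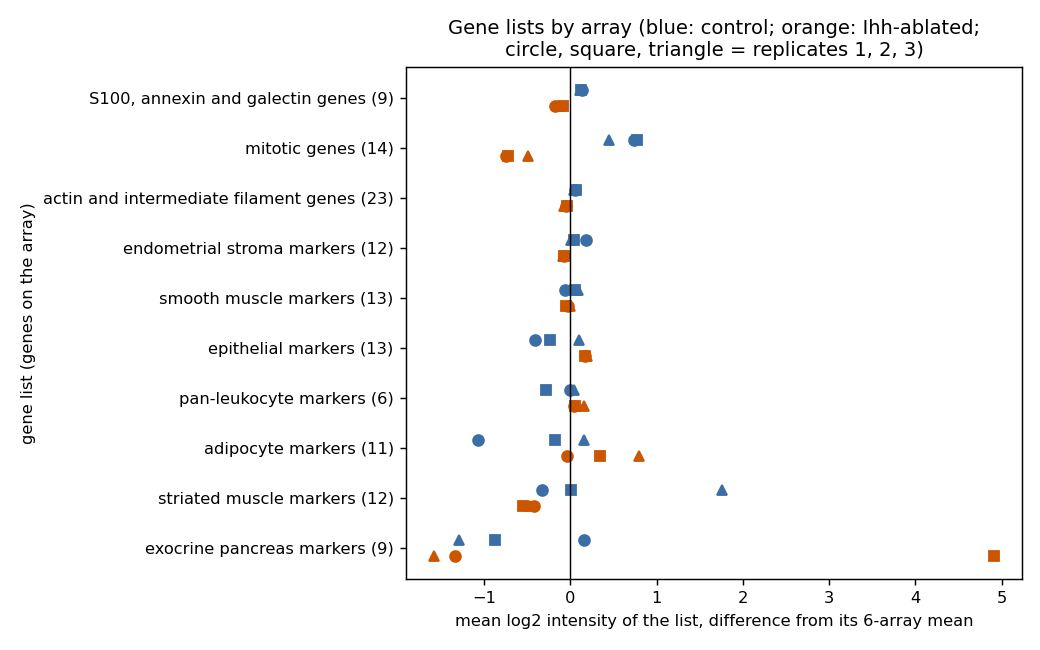
Mean log2 intensity of each gene list on each array relative to its 6-array mean (horizontal axis), with control in blue, Ihh-ablated in orange and circle, square and triangle for replicates 1, 2 and 3. The 9 genes and the mitotic genes separate the genotypes, striated muscle markers stand out in control replicate 3 and pancreas markers in Ihh-ablated replicate 2.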

How the data were processed

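Uterine RNA of 3 control and 3 Ihh-ablated samples was hybridised as biotinylated cRNA to Affymetrix arrays, per the labels' protocols. The deposited table holds linear intensity values, 1 for each probe set and array, as processed by the authors. No label or header records their probe summary, background correction or normalization, so dim probe sets have no stated background. Of 45101 probe sets 64 controls were left out. Probe sets were named by the platform annotation where it gave 1 symbol (34945 probe sets, against 932 with several and 9160 with none), and all 18 member probe sets matched the RefSeq gene table by Entrez identifier. Values under 16 were set to 16, log2 was taken, and the lowest 25% by mean (under 6.16) were left out, leaving 33777 tested. The comparison used limma 3.58.1 under R 4.3.3 (lmFit, eBayes with an intensity trend) and Benjamini-Hochberg adjustment across the tested probe sets. Signs are Ihh-ablated minus control. The brightest probe set stood for a gene. The fit was tested on simulated data. The members, gene lists, named genes and tests were chosen with earlier results of these data known. Named genes were all members, in each further list up to 4 called genes or, with none, the one of lowest p, and the 5 of most similar profile. Other genes were named for known roles, and Vwf, Kcnmb1 and Tpm2 for their direction, after their values were seen. Alternatives, 18 of them, changed the normalization, floor, filter, variance model, array weights, replicate block, arrays and probe sets. Plots were made in Python 3.11.15 (matplotlib 3.10.9).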

Additional observations from a re-analysis of the deposited data

How the results depend on the processing

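Under all 18 alternatives S100a6 and S100a10 kept direction and call, and Lgals1, Anxa2 and S100a4 their direction. The number of the 9 genes called lower was 2 with median-centred arrays and without an intensity trend, and 3 to 4 with each array left out in turn; in the other alternatives it was 3 or 4. Of the other family genes 1, Lgals2, fell with array weights, with the replicate number as a block and without control replicate 3 and Ihh-ablated replicate 2 together, and 0 to 2 fell with 1 array left out. Among binding partners 2 fell without both of those arrays, 0 rose with the mean of a gene's probe sets, and with 1 array left out 1 to 3 fell and 0 to 2 rose. Over the whole array 238 genes were lower and 199 higher. The lower count was 129 with median-centred arrays, 154 without a trend, 473 with array weights, 466 with the replicate block and 662 without both arrays, and 75 (without control replicate 1) to 1179 (without control replicate 3) with 1 array left out. The higher count was 128 after quantile normalization, 131 with dim probe sets kept, 72 without a trend, 309 with array weights, 456 with the replicate block and 482 without both arrays, and 25 to 717 with 1 array left out. The causes were not tested. Deviations of same-numbered samples correlated by -0.13, -0.031 and 0.20. With so few samples a group, these values cannot decide whether the numbers pair the samples. The block changed no call among the 9 genes.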
